A study of Mus musculus with 6 samples.

Results

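The G1/S cyclins and their kinases are described here as 9 genes chosen by name from the count table: the D cyclins Ccnd1, Ccnd2 and Ccnd3, the E cyclins Ccne1 and Ccne2, the kinases Cdk2, Cdk4 and Cdk6, and the phosphatase Cdc25a. They were chosen with earlier results of these data known, so setting them against all genes is not independent of the data. All 9 were found among the 27179 identifiers of the table and all 9 passed the filter on low counts. The libraries came from polyadenylated RNA of E14TG2a mouse embryonic stem cells, grown without feeders on gelatin in medium with 2% serum, leukemia inhibitory factor, the GSK3 inhibitor CHIR99021 and the MEK inhibitor PD0325901. Both groups carried Trim71, a TRIM-NHL protein that binds mRNA, with a FLAG epitope tag. The tagged protein was wild type in 3 libraries (WT) and held R783H, an amino-acid change that the series links to hydrocephalus, in the other 3 libraries (R783H). The labels give no further allele or agent, and do not say whether libraries A, B and C of a group are clones, cultures or library preparations, so the tests measure the spread between these libraries, which may be technical.

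Progress from G1 to S phase is driven by cyclins, which bind and activate cyclin-dependent kinases. D cyclins partner with Cdk4 and Cdk6 and phosphorylate the retinoblastoma family of pocket proteins, which releases E2F transcription factors. E cyclins partner with Cdk2, and Cdc25a removes the inhibitory phosphates from that kinase. Embryonic stem cells are known for a short G1 phase and for high cyclin E and Cdc25a activity.

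Total counts ran from 20894277 to 29079670 per library, from 20894277 to 25174121 in WT and from 27807385 to 29079670 in R783H. Library R783H B stood furthest from its group, with a chi-square per degree of freedom of 10.6 and 11.6 against A and C of the same group, where other pairs within groups gave 1.95 to 4.28. Counts of markers called are to be read against 64.5% of the 14199 tested genes called in either direction, 33.5% higher and 30.9% lower. All 12 embryonic stem cell markers were tested and their summed level was 8014 to 8143 CPM (TMM-scaled counts relative to the library total) in R783H and 8212 to 8315 CPM in WT, with 3 called higher (most Dppa5a, 0.30 on the log2 scale) and 4 lower (most Utf1, -0.67). Feeder fibroblast markers summed to 3.28 to 4.33 CPM in R783H and 4.17 to 4.802 CPM in WT, with Twist2 at 0 counts in every library and 1 of 4 tested genes called lower (Thy1, -2.74). Endoderm markers summed to 9.09 to 10.1 CPM in R783H and 4.28 to 6.68 CPM in WT, with Afp at 0 and 2 of 4 tested genes called higher (most Sox17, 1.29). Sox7, another endoderm marker, was too scarce to be tested and went the other way. Its mean was 0.102 ± 0.0323 CPM in R783H against 0.667 ± 0.27 CPM in WT (SD, n = 3), without overlap. Over 16 alternative settings 1 to 4 endoderm markers were called higher and 0 to 1 lower. Trophoblast markers summed to 84.1 to 93.3 CPM in R783H and 118.8 to 119.5 CPM in WT, with 3 of 6 tested genes called lower (most Cdx2, -1.70) and 1 higher (Ascl2, 1.10). The part of these other markers in the results below was not tested. Trim71 itself had a log2 fold change of 0.03 (SE 0.08; edgeR adjusted p 0.743), which cannot check an amino-acid change.

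All 5 D and E cyclin mRNAs were lower in R783H, while the mRNAs of their main kinases Cdk4 and Cdk2 were not called in either direction. Ccne1 fell furthest among the well-counted members, to 0.323 of its WT level, and Ccnd1 and Ccnd3 fell to 0.519 and 0.5005 of theirs. Cdc25a fell less, to 0.783, and Cdk6 to 0.875. In all, 7 of the 9 genes were called lower and 0 higher by edgeR's quasi-likelihood test at an adjusted p under 0.05, where 30.9% of the 14199 tested genes were called lower, 33.5% higher and 64.5% in either direction. At an unadjusted p under 0.05 the counts were again 7 and 0. The share of all tested genes at that threshold was not counted, so these counts cannot be set against it. Over 16 alternative settings 6 to 8 were called lower: 8 without R783H B, with Cdk4 added, and 6 with library size alone, without R783H C, without WT B and without WT C, each time without Cdk6. The length and GC offset called 1 gene higher, Cdk4, and the other settings 0. The median log2 fold change of the 9 genes was -0.82, beside 0.03 for all tested genes, and their median absolute value was 0.82, beside 0.34. The same 7 genes had CPM ranges that were apart between the groups, which held for 68.1% of all tested genes. In these bulk libraries, fewer cells in a given phase of the cycle and less mRNA per cell cannot be told apart.

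**Figure D1:**
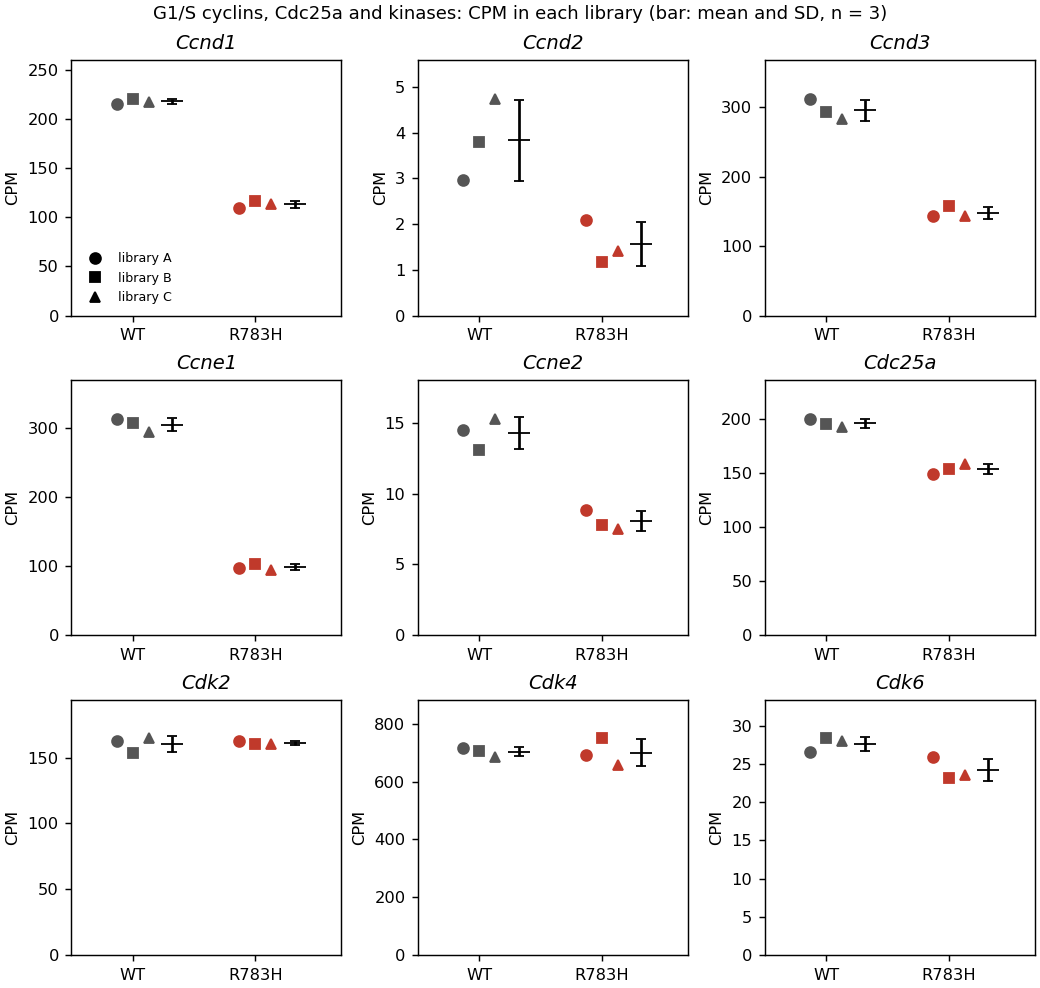
CPM (TMM-scaled counts relative to the library total, axis from 0) of each of the 9 genes in the 3 WT and 3 R783H libraries; circles, squares and triangles are libraries A, B and C, and the black bar beside each group is its mean and SD. The groups are apart for all 5 cyclins, Cdc25a and Cdk6, and overlap for Cdk2 and Cdk4.

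Among the D cyclins, Ccnd1 (Entrez 12443, chr7:144929931-144939831, minus strand, GRCm38) encodes a D cyclin induced by growth factor signals. It stood at 216, 220.5 and 218 CPM in WT A, B and C and at 109, 116 and 114 CPM in R783H A, B and C. The highest R783H library lay far below the lowest WT library. This gave a log2 fold change of -0.95 (SE 0.04) at an edgeR adjusted p of 4.73e-08. Its transcript shares 1100 exon bases with LTO1 on the opposite strand. LTO1 averaged 15.7 ± 1.04 CPM in R783H against 15.05 ± 1.16 CPM in WT (SD, n = 3), and was not called (edgeR adjusted p 0.538).

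Ccnd3 (Entrez 12445, chr17:47505051-47599689, plus strand) was the most abundant D cyclin. It stood at 312, 293 and 282 CPM in WT A, B and C and at 143, 158 and 143 CPM in R783H A, B and C. All R783H libraries lay far below all WT libraries. It changed by -0.999 on the log2 scale (SE 0.05), at an edgeR adjusted p of 1.30e-07. Ccnd3 shares 361 exon bases with Bysl, a ribosome biogenesis gene on the opposite strand, which changed by -0.71 (SE 0.06; edgeR adjusted p 1.84e-06), and a processed pseudogene, Ccnd3-ps, matches it at 96.3% over 881 bases. Whether reads of these genes entered the Ccnd3 count was not tested.

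Ccnd2 (Entrez 12444, chr6:127125162-127152188, minus strand) was scarce. With 33 to 63 counts per library in R783H and at least 60 in WT, it stood at 2.97, 3.79 and 4.73 CPM in WT A, B and C and at 2.10, 1.16 and 1.42 CPM in R783H A, B and C. The groups were apart, R783H A being the nearest to WT. The log2 fold change was -1.29 (SE 0.23; edgeR adjusted p 4.75e-04), and its 95% interval, from -1.80 to -0.79, holds the fold changes of Ccnd1 and Ccnd3. Ccnd2 shares 372 exon bases with Gm43126 and 368 with 9330179D12Rik, both on the opposite strand. 9330179D12Rik had 0 counts in every library, and Gm43126 was not matched to the count table. Whether such reads entered the Ccnd2 count was not tested.

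Among the E cyclins, Ccne1 (Entrez 12447, chr7:38097984-38107490, minus strand) had the lowest p of the 9 genes. It stood at 314, 308 and 295 CPM in WT A, B and C. In R783H A, B and C it stood at 97.0, 104 and 95.1 CPM. The groups were far apart, and the libraries of each group lay close together. Its log2 fold change of -1.63 (SE 0.05) had a 95% interval from -1.74 to -1.53 and an edgeR adjusted p of 6.00e-09, and it ranked 335 of 14199 by absolute fold change. Ccne1 shares no exon base with another annotated gene.

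Ccne2 (Entrez 12448, chr4:11190433-11204779, plus strand), the second E cyclin, was much less abundant. It stood at 14.5, 13.05 and 15.3 CPM in WT A, B and C and at 8.85, 7.75 and 7.53 CPM in R783H A, B and C, without overlap. Its log2 fold change was -0.82 (SE 0.09; edgeR adjusted p 1.89e-05). Ccne2 shares 609 exon bases with Ints8 on the opposite strand. Ints8 had more reads, with 93.2 ± 6.66 CPM in R783H against 109.8 ± 3.68 CPM in WT (SD, n = 3), and changed by -0.24 (SE 0.06; edgeR adjusted p 0.00381). How far Ints8 reads entered the Ccne2 count was not tested.

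Cdc25a (Entrez 12530, chr9:109875518-109893895, plus strand) stood at 200.4, 196 and 192 CPM in WT A, B and C and at 149, 153 and 158 CPM in R783H A, B and C. The groups did not overlap, and the gap between them was wider than the range within either. The log2 fold change was -0.35 (SE 0.04; edgeR adjusted p 2.71e-05). That is close in size to the median absolute change of all tested genes, 0.34.

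The kinases showed another picture. Cdk4 (Entrez 12567, chr10:127063535-127067288, plus strand), the partner of D cyclins, stood at 716, 707 and 687 CPM in WT A, B and C and at 693, 749 and 659 CPM in R783H A, B and C. The WT values lay inside the range of the R783H values. Its log2 fold change of -0.01 (SE 0.05) had a 95% interval from -0.12 to 0.10 and an edgeR adjusted p of 0.918. Without R783H B it was -0.08 and called lower (edgeR adjusted p 0.0394), and with an offset for transcript length and GC content it was 0.09 and called higher (edgeR adjusted p 0.0140), where the adjusted p over 16 alternative settings ran from 0.0140 to 0.994. Cdk4 shares 641 exon bases with Tspan31 on the opposite strand, which changed by -0.28 (SE 0.06; edgeR adjusted p 0.00249).

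Cdk2 (Entrez 12566, chr10:128697938-128705051, minus strand), the partner of E cyclins, stood at 163, 153 and 164 CPM in WT A, B and C and at 162, 160.1 and 160.2 CPM in R783H A, B and C. The groups overlapped. Its log2 fold change was 0.01 (SE 0.04), with a 95% interval from -0.09 to 0.10 and an edgeR adjusted p of 0.896. Neither the interval of Cdk2 nor that of Cdk4 reaches the fold change of any of the 5 cyclins. Cdk2 shares 34 exon bases with Pmel on the opposite strand, which changed by 0.89 (SE 0.07; edgeR adjusted p 8.48e-07).

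Cdk6 (Entrez 12571, chr5:3341004-3531008, plus strand), the other partner of D cyclins, stood at 26.6, 28.3 and 28.0 CPM in WT A, B and C and at 25.9, 23.2 and 23.5 CPM in R783H A, B and C. The groups were apart, by least between WT A and R783H A. The log2 fold change was -0.19 (SE 0.06; edgeR adjusted p 0.0221). This call was lost without R783H C (edgeR adjusted p 0.0537), without WT B (0.0867), without WT C (0.0593) and with scaling by library size alone (0.165), while the length and GC offset gave -0.52. Over 16 alternatives the adjusted p of Cdk6 ran from 9.33e-07 to 0.165. Cdk6 shares 368 exon bases with Gm17590 on the opposite strand, which was not matched to the count table. Whether its reads entered the Cdk6 count was not tested.

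**Figure D2:**
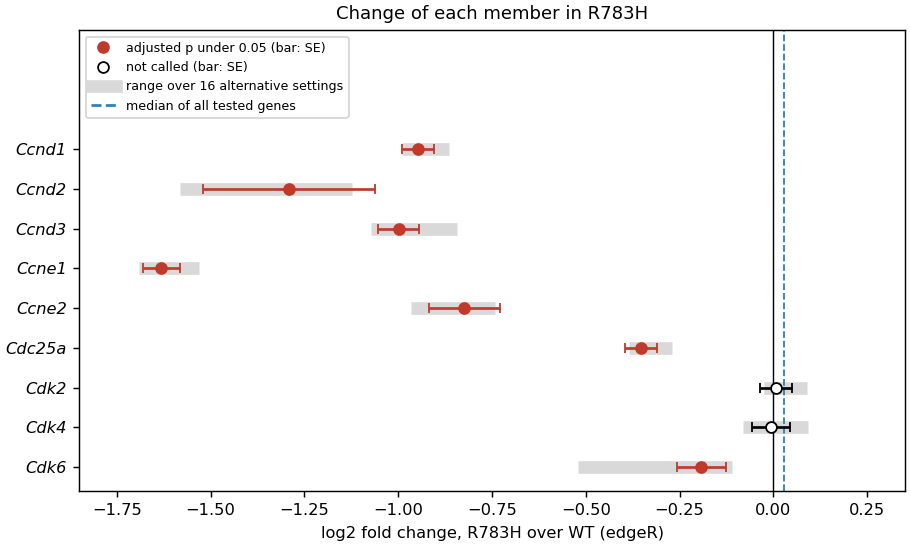
Log2 fold change of R783H over WT for each gene (horizontal axis) with its SE, filled where the edgeR adjusted p was under 0.05 and open where not; grey bars span the values over 16 alternative settings and the dashed line is the median of all tested genes, 0.03. The 5 cyclins lie between -1.63 and -0.82, Cdc25a at -0.35, Cdk6 at -0.19, and Cdk2 and Cdk4 at 0.01 and -0.01.

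Levels of different genes were compared as CPM per kilobase of the longest protein-coding transcript. In WT, Cdk4 was highest at 343 ± 7.26 CPM per kb (SD, n = 3), followed by Ccne1 at 153 ± 4.91, Ccnd3 at 139.8 ± 7.06, Cdk2 at 66.6 ± 2.52, Ccnd1 at 58.3 ± 0.622 and Cdc25a at 54.0 ± 1.09. Ccne2 at 4.75 ± 0.377, Cdk6 at 2.40 ± 0.0804 and Ccnd2 at 0.605 ± 0.139 CPM per kb closed the order. Ccne1 and Ccnd3 overlapped in WT, and all other neighbours were apart. In R783H, Ccne1 dropped from the second to the fourth place, at 49.3 ± 2.22 CPM per kb, behind Ccnd3 at 69.99 ± 4.22 and Cdk2 at 66.9 ± 0.562, which overlapped each other. Cdc25a at 42.3 ± 1.22 then stood above Ccnd1 at 30.2 ± 0.988 CPM per kb. Per kilobase of coding sequence instead, Ccne1 overlapped Ccnd1 in WT, at 249.5 ± 8.03 against 246 ± 2.63, and stood below Ccnd1 in R783H, at 80.5 ± 3.63 against 128 ± 4.17. On that scale in WT Ccnd3, at 337 ± 17.0, stood above Ccne1 without overlap, Cdk6 above Ccne2 and Ccnd1 above Cdk2. The order in R783H also depended on the length used. Per kilobase of coding sequence, Cdc25a in R783H, at 99.7 ± 2.86, stood below Ccnd1 and above Ccne1, both without overlap. Ccnd3, at 168.8 ± 10.2, then stood above Cdk2, at 155 ± 1.30, without overlap.

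The summed D cyclins fell from 199 ± 6.60 to 100.5 ± 4.92 CPM per kb (SD, n = 3), a ratio of 0.506, and the summed E cyclins from 157 ± 4.72 to 51.96 ± 2.20 CPM per kb, a ratio of 0.330. The summed kinases stood at 412 ± 6.71 CPM per kb in WT and 410.1 ± 22.2 CPM per kb in R783H. Ccnd1 made up 29.4% ± 1.14 of the D cyclin level in WT and 30.1% ± 0.886 in R783H, so the makeup of the D cyclins was alike in both groups within its spread. Ccne1 made up 96.98% ± 0.298 of the E cyclin level in WT and 94.8% ± 0.507 in R783H, without overlap. The part of Ints8 reads within the Ccne2 count in these shares was not tested. Of the 5 cyclins together, Ccne1 held 42.9% ± 0.289 in WT and 32.3% ± 0.309 in R783H, and Ccnd3 held 39.3% ± 0.782 and 45.9% ± 0.655 (SD, n = 3). Per kilobase of coding sequence instead, Ccne1 held 29.4% ± 0.25 in WT and 20.9% ± 0.273 in R783H. On that scale Ccnd3 held 39.7% ± 0.991 and 43.8% ± 0.801, a larger share than Ccne1 in both groups.

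**Figure D3:**
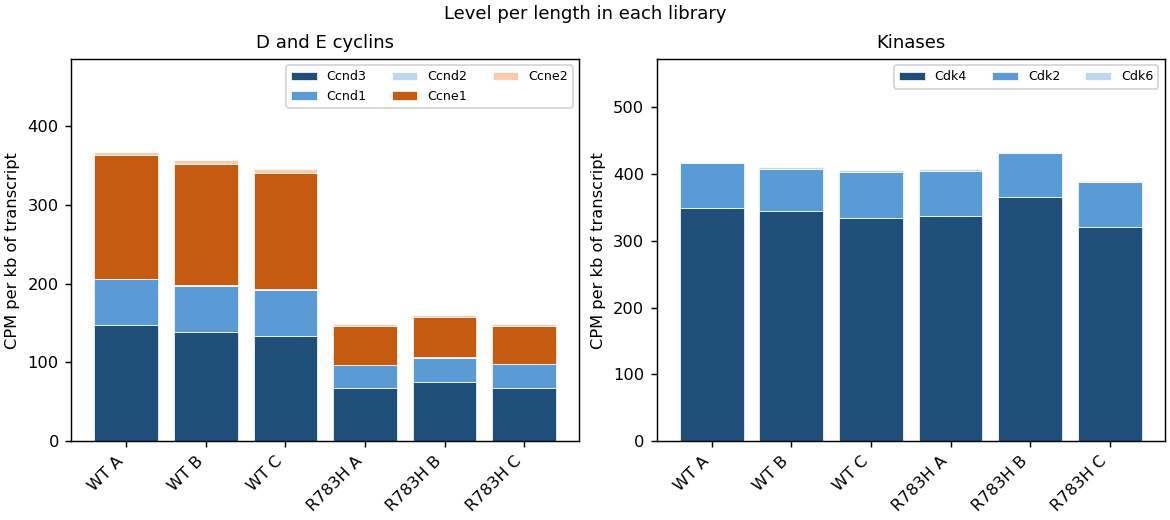
Level per length (CPM per kb of transcript, axes from 0) stacked for the D and E cyclins (left) and the 3 kinases (right) in each of the 6 libraries. The cyclin columns reach 345 to 367 in WT and 148 to 160.5 in R783H, while the kinase columns reach 405 to 419 and 390 to 434.

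Ratios between 2 of the genes within a library need no scaling between libraries, and 9 such ratios were tested with a two-sided exact permutation test over the 6 libraries. With 3 libraries against 3 that test cannot give a p under 0.1. The log2 ratio of Ccnd1 to its partner Cdk4 was -1.69 ± 0.0365 in WT and -2.63 ± 0.0864 in R783H, a difference of -0.94 (SE 0.05; exact p 0.1, adjusted 0.225 over 9 ratios). The log2 ratio of Ccne1 to its partner Cdk2 was 0.93 ± 0.0839 in WT and -0.71 ± 0.0694 in R783H (SD, n = 3), a difference of -1.64 (SE 0.06; same exact p). Ccne1 counts thus exceeded Cdk2 counts in every WT library and lay below them in every R783H library. Between the E cyclins, the log2 ratio of Ccne1 to Ccne2 differed by -0.80 (SE 0.12; exact p 0.1), so the Ccne1 count fell further than the Ccne2 count by more than the spread. How far Ints8 reads within the Ccne2 count made this difference was not tested. The log2 ratio of Cdk2 to Cdc25a differed by 0.36 (SE 0.05; exact p 0.1).

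The other 5 ratios overlapped between the groups. For Ccnd1 to Ccnd3 the log2 ratio differed by 0.05 (SE 0.06; exact p 0.5), and by 0.0056 to 0.0831 when a library was left out. For Ccnd2 to Ccnd3 the difference was -0.32 (SE 0.37; exact p 0.5) and for Ccnd1 to Ccnd2 0.37 (SE 0.34; exact p 0.4), and Ccnd2 had few counts. Leaving out a library moved these from -0.58 (without R783H A) to -0.08 (without R783H B) and from 0.16 (without R783H B) to 0.63 (without R783H A). Cdk4 to Cdk6 differed by 0.18 (SE 0.09; exact p 0.2), or 0.10 to 0.24 when a library was left out, and Cdk4 to Cdk2 by -0.02 (SE 0.07; exact p 0.8). Adjusted over the 9 ratios, the exact p values ran from 0.225 to 0.8.

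**Figure D4:**
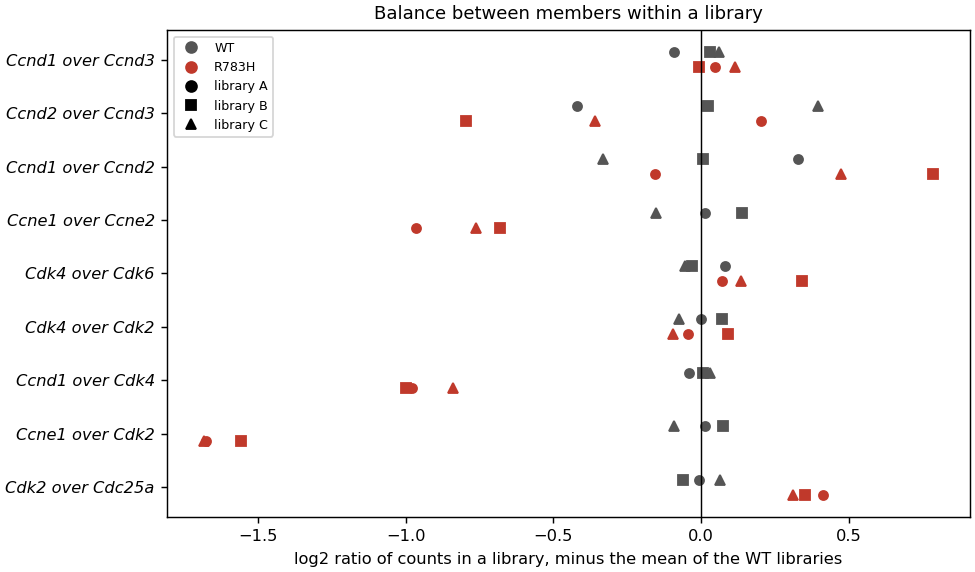
Log2 ratio of the counts of 2 genes in each library, minus the mean of the WT libraries (horizontal axis), for 9 pairs; grey is WT, red is R783H, and the marker shape is the library letter. The R783H libraries are apart from WT for Ccne1 over Ccne2, Ccnd1 over Cdk4, Ccne1 over Cdk2 and Cdk2 over Cdc25a, and overlap with WT for the other 5 pairs.

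The genes whose log2 CPM over the 6 libraries lay closest to those of Ccne1, among 9113 others averaging at least 10 CPM, were Myc, Rnd1 and Tcf15. Their root mean square distances on the log2 scale, after centring each gene, were 0.0432, 0.0545 and 0.0928. Myc, a transcription factor that promotes growth and division, stood at 65.4 ± 2.33 CPM in WT and 19.96 ± 1.11 CPM in R783H (SD, n = 3). With 2 groups of 3 libraries, this likeness is mostly that of the fold change.

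Upstream sequences are shown for Ccne1, which fell furthest, for Cdk4, which was not called, and for Cdc25a, because these 3 differ in the motifs they hold. RefSeq promoter entries of GRCm38.p6 were matched for 6 of the 9 genes and 7 starts, and Ccnd1, Ccnd2 and Ccne2 had none. For Cdc25a, Cdk6 and the downstream start of Ccnd3, the bases before the start ended at chr9:109875578, chr5:3343892 and chr17:47593466. These starts thus lie inside the gene coordinates given above. The 250 bases before each start were searched on both strands for the E2F motif TTTNNCGC, the E-box CACGTG that Myc and related factors bind, the GC box GGGCGG and the CCAAT box CCAAT. Capitals mark E2F motifs and E-boxes, which do not overlap here.
Ccne1 (chr7:38107491-38107740, minus strand): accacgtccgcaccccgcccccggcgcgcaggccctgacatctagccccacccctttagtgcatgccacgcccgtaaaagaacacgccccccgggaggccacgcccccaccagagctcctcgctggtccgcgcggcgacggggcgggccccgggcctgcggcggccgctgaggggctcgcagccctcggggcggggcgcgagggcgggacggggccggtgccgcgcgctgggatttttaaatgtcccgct
Cdk4 (chr10:127063285-127063534, plus strand): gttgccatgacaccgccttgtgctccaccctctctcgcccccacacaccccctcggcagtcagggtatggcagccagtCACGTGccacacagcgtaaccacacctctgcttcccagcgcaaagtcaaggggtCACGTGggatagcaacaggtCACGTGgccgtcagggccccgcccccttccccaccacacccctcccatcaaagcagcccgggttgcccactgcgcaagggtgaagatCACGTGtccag
Cdc25a (chr9:109875329-109875578, plus strand): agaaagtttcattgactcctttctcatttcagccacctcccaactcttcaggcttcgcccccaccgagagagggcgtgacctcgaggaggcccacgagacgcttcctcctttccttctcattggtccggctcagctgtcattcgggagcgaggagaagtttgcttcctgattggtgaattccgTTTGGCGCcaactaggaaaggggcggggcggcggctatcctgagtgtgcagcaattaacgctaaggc

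The E2F motif was present upstream of Cdc25a, starting 67 bases before the start in the promoter entry, and of Cdk2 and Cdk6. It was present in 4.28% of all 32851 upstream sequences. The Cdc25a match overlaps the beginning of that gene's coordinates given above, and the Cdk6 match lies within those of Cdk6. The E-box was present 4 times upstream of Cdk4 and once upstream of Cdk6, and in 6.02% of all. Neither motif was found before Ccne1 or before either start of Ccnd3, whereas GC boxes, present in 32.7% of all, were found in 6 of the 7 sequences, 4 of them before Ccne1. The CCAAT box, present in 33.8% of all, was found before Cdc25a, Cdk2 and the downstream start of Ccnd3. These counts were not tested against the fold changes. A match is a description of the sequence, not of binding.

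The 3′ ends of the mRNAs were searched for perfect matches to bases 2 to 8 of 3 families of microRNA, small RNAs that repress mRNAs through such matches. Families were chosen from general knowledge: let-7, which counters the stem cell state; the miR-291a family, abundant in these cells; and miR-15/16, known for acting on G1/S cyclins. Mature microRNAs themselves are not counted in these libraries. Seeds are in capitals in the RefSeq sequences of 1 member of each family.
mmu-let-7g-5p: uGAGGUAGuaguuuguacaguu
mmu-miR-291a-3p: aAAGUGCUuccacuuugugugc
mmu-miR-16-5p: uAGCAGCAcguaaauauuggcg

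Matches to the miR-15/16 seed, TGCTGCT, were found in the 3′ untranslated regions of 6 of the 9 genes, namely Ccnd1, Ccnd2, Ccnd3, Ccne1, Cdk6 and Cdc25a, against 20.6% of 20119 such regions. These regions run from 531 bases in Ccne1 to 10217 bases in Cdk6, and the median over all genes was 964 bases, so the share is not one over regions of like length. Ccne2, Cdk2 and Cdk4 had no match. Matches are shown in capitals with 10 bases on each side, because this seed had matches in more of the 9 genes than the other seeds searched. Any relation between matches and fold changes was not tested.
Ccnd1: catgccaccaTGCTGCTggcccggggg
Ccnd2: tttcacggtgTGCTGCTattttagaaa
Ccnd3: ttgctttgctTGCTGCTtagcttctgt
Ccne1: attttgtaagTGCTGCTatgtctatca
Cdk6, 1 of 2: ttgcacagggTGCTGCTatctcaaaga
Cdc25a: gccgcccaagTGCTGCTggccaaatac
Cdc25a, another: agaccagtatTGCTGCTactcaaagtc

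Matches to the let-7 seed, CTACCTC, were found in Cdc25a and Cdk4 and in 9.03% of all regions. Matches to the miR-291a seed, AGCACTT, were found in Ccnd1, Ccnd2, Cdk4 and Cdk6 and in 14.8% of all.
Cdc25a, let-7: atcctaggagCTACCTCtacttttaat
Cdk4, let-7: ggcccgaggcCTACCTCccctcatcca

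Other genes of the pathway were counted from lists. Beside each count stand the shares of all tested genes, 33.5% called higher, 30.9% lower and 64.5% in either direction, and counts near those shares say nothing particular of a list. Of the 7 CDK inhibitors, which hold the cyclin-kinase complexes back, 3 were higher and 2 lower, close to the share called among all genes. Their median log2 fold change was 0.24, and ran from 0.11 (without WT B) to 0.45 (without WT A). The value 0.24 is that of a scarce gene that was not called (SE 0.26; edgeR adjusted p 0.449). Cdkn2a, whose products include an inhibitor of Cdk4 and Cdk6, rose by 0.74 (SE 0.07), from 17.3 ± 0.618 to 28.9 ± 2.19 CPM (SD, n = 3). Its count is for the whole gene, so its products were not told apart. Cdkn1b, an inhibitor of Cdk2 complexes, rose by 0.59 (SE 0.06), from 57.5 ± 3.48 to 86.5 ± 3.49 CPM. Cdkn1a, the most abundant of the list, rose by 0.503 (SE 0.05), from 144.2 ± 2.36 to 204.4 ± 10.8 CPM. Cdkn2d went the other way, by -0.56 (SE 0.08), from 14.98 ± 0.946 to 10.16 ± 0.617 CPM. Cdkn1a, Cdkn1b and Cdkn2d were chosen after their values were seen. Cdkn1c changed by -0.78 (SE 0.19) at 2.32 CPM or less in both groups. Of the 3 pocket proteins, the substrates of these kinases, 2 were higher and 0 lower, and Rbl2 rose by 0.76 (SE 0.09); Rb1, at 6.37 ± 0.954 against 5.68 ± 0.534 CPM in WT, was not called and was named after its values were seen. The numbers called were the same under all 16 alternatives for both lists.

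Of the 10 E2F and DP factors, which the pocket proteins bind, 2 rose and 6 fell, against 33.5% and 30.9% of all genes, and the median was -0.33. Tfdp1, the main dimer partner of E2F proteins, changed by -0.67 (SE 0.04), and Tfdp2, another partner, by 0.40 (SE 0.06). Of 18 genes transcribed at the G1/S transition, 15 fell and 1 rose, and the median was -0.44. Rrm2, a subunit of ribonucleotide reductase, changed most, by -1.01 (SE 0.05), from 446 ± 7.67 to 221 ± 11.2 CPM, and Pola1, a DNA polymerase subunit, was the gene called higher (0.20, SE 0.07), with overlap between the groups. The number lower stayed at 15 under all alternatives, and the number higher ran from 0 to 2.

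Of 9 tested genes for later cyclins, their kinase and its phosphatases and inhibitory kinases, 6 were lower and 0 higher. Ccna2, the cyclin of S phase, changed by -0.86 (SE 0.04), from 261 ± 0.99 to 144 ± 6.29 CPM; it is also counted in the G1/S list. Cdk1, the mitotic kinase, chosen after its values were seen, changed by -0.70 (SE 0.05), whereas Cdk2 and Cdk4 were not called; this difference between kinases was not tested. Of the 3 parts of the CDK-activating kinase, which phosphorylates the G1/S kinases, 1 was lower and 0 higher: Ccnh changed by -0.39 (SE 0.05).

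Of 19 tested genes for the turnover of G1/S cyclins and Cdc25a, 8 fell and 3 rose, in all near the 64.5% of all genes called. With library size alone 7 rose and 8 fell. The median was 0.00 (from -0.06 to 0.08 over the alternatives, so of no fixed sign). Cks1b, a cofactor in the degradation of Cdkn1b, changed by -0.70 (SE 0.05), and Usp28, a deubiquitinase, rose by 0.30 (SE 0.04). Fbxw7, the ubiquitin ligase adaptor that recognises cyclin E, had 40.9 ± 2.67 CPM in R783H against 37.4 ± 2.37 CPM in WT and was not called (edgeR adjusted p 0.109); it was named for this role after its values were seen. The number higher in this list ran from 1 to 7 over the alternatives. Of 25 tested transcriptional and atypical cyclins and kinases, which have no main part in the G1/S step, 7 rose and 7 fell, and the median was 0.08. With library size alone 13 rose and 5 fell, and over the alternatives 6 to 13 rose, 5 to 9 fell and the median ran from 0.03 to 0.16. Ccng2, a cyclin of arrested cells, rose by 1.77 (SE 0.08), from 5.11 ± 0.138 to 17.4 ± 0.781 CPM, and Ccnf, which peaks in G2, changed by -0.77 (SE 0.06).

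**Figure D5:**
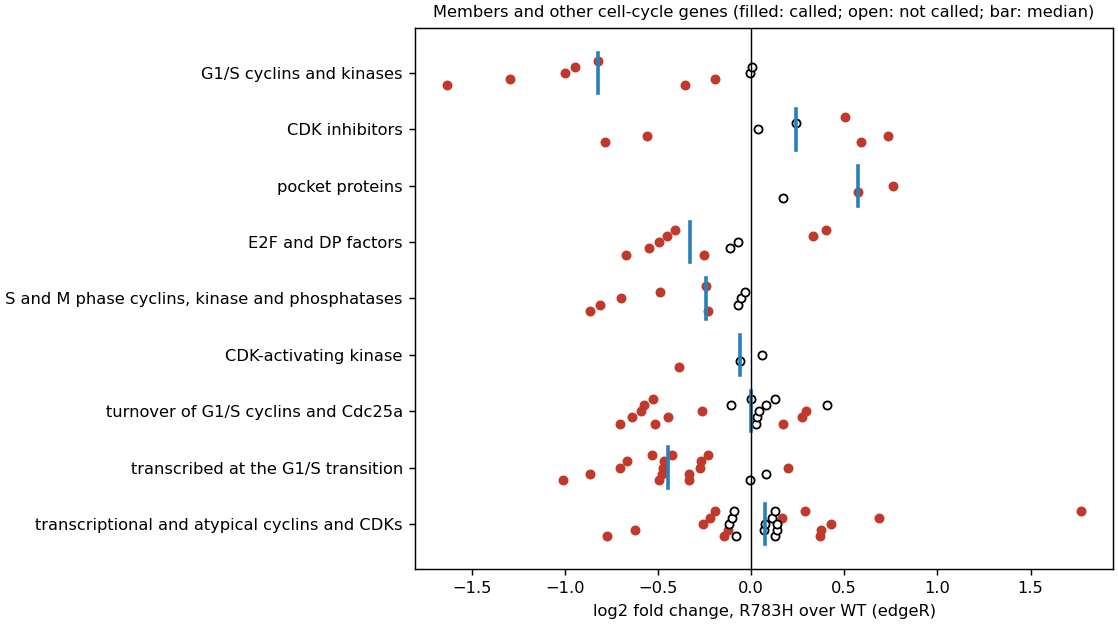
Log2 fold change of R783H over WT (horizontal axis) for each tested gene of the 9 lists, filled where called by edgeR and open where not, with the list median as a bar. The G1/S cyclins and kinases have a median of -0.82, the genes transcribed at the G1/S transition of -0.44 and the 3 pocket proteins of 0.57. The median of the CDK inhibitors, 0.24, is that of a gene that was not called, and 3 of the 7 were called higher and 2 lower.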

How the data were processed

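The authors deposited read counts per Entrez gene, with 1 column per library; the values are whole numbers and were taken as raw counts. Per the submitters' processing notes, CASAVA 1.4, HISAT2 and SAMtools were used with the build mm10; the counting tool, annotation and use of strand are not given in the sources used here. Symbols and coordinates came from RefSeq (GRCm38.p6; 25275 of 27179 identifiers matched), and lengths, exons and 3′ untranslated regions from GENCODE M21 (GRCm38); copies were searched with BLAST 2.17.0 (at least 95% identity over 300 bases).

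R 4.3.3 with edgeR 4.0.16 (filterByExpr, minimum count 10 and total 15; TMM; quasi-likelihood test, group as the single term, Benjamini-Hochberg over 14199 genes), limma 3.58.1 and DESeq2 1.42.0 was used, after a test on simulated data. SE is the fold change over the square root of F. At these depths 3 counts are 0.0998 to 0.149 CPM. Counting error understates the spread, so replicates were used throughout. The genes and lists were chosen with earlier results of these data known. By rule the text names all 9 genes, Trim71, the largest called change per list and direction, and the 3 profiles nearest to the most changed gene averaging at least 10 CPM. Outside the rule, Cdkn1a, Cdkn1b, Cdkn2d, Rb1, Cdk1, Fbxw7, Sox7, Twist2 and Afp were named after their values were seen. LTO1, Bysl, Ints8, Tspan31, Pmel, Gm43126, 9330179D12Rik and Gm17590 were named because they share exon bases with the 9 genes. Alternatives covered scaling, filters, tests, depth, length and GC, the replicate letters and each library.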

Additional observations from a re-analysis of the deposited data

How the results depend on the processing

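Ccnd1, Ccnd2, Ccnd3, Ccne1, Ccne2 and Cdc25a kept their direction and their call under all 16 alternatives. Their log2 fold changes ran from -0.99 to -0.87, -1.58 to -1.12, -1.07 to -0.84, -1.69 to -1.53, -0.97 to -0.74 and -0.38 to -0.27. The number of the 9 genes called lower was 6 to 8 when a library was left out and 6 with library size alone, and the number called higher was 1 with the length and GC offset (Cdk4) and 0 otherwise. Genes called in all ran from 8161 to 9882 of those tested when a library was left out.

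Cdk2 and Cdk4 lay so close to 0 that their signs turned. Cdk2 was -0.0144 with RLE size factors and -0.0155 with DESeq2, and ran from -0.0258 (without WT B) to 0.0238 when a library was left out, below 0 also without R783H A and without R783H B. Cdk4 was 0.00479 with upper-quartile factors, 0.0745 with library size alone, 4.33e-04 with a floor of 10 counts per library and 0.0929 with the length and GC offset. When a library was left out it ran from -0.0808 (without R783H B, where it was called lower) to 0.0258 (without R783H C), above 0 also without WT A. The log2 ratio of Cdk4 to Cdk2 likewise ran from -0.0696 to 0.0238 when a library was left out. Per coding length, Ccnd1 made up 41.9% of the D cyclins in WT and 42.8% in R783H, Ccne1 95.5% and 92.4% of the E cyclins, and Cdk4 80.9% and 81.0% of the kinases. Causes were not tested.

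Same-lettered libraries did not deviate together (r of -0.07, 0.00682 and 0.0851 for A, B and C), so the letters were not taken as pairs; with the replicate block 9260 genes and again 7 of the 9 were called. Few counts limit Ccnd2.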
